A study of Mus musculus with 18 samples.

Results

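The proteasome is described here through its own genes in mouse spleen erythroblasts that carry different alleles of Klf1, the gene for an erythroid zinc-finger transcription factor. The genes were the rows of the deposited count table whose symbol is Psma, Psmb, Psmc, Psmd, Psme, Psmf or Psmg followed by a number, with at least 10 counts in at least 3 libraries. Of 23365 rows, 48 symbols matched and 47 met the count rule, and Psmb11, the subunit of the thymus proteasome, did not. All 47 also passed the filter on low counts that left 13405 genes for testing. Spleen cells double positive for CD71 and TER119 were sorted by flow cytometry, RNA was extracted with Trizol, and libraries were made with the Swift Rapid RNA kit. The 5 genotypes were WT/WT with 3 libraries, WT/D45 with 3, D45/D45 with 3, WT/KO with 5 and D45/KO with 4, where KO is a Klf1 knockout allele and D45 (MommeD45) is a Klf1 missense allele. Every D45/KO and D45/D45 mouse therefore has no wild-type Klf1, and each WT/KO and WT/D45 mouse keeps a single wild-type copy. Neither age nor sex is given in the labels, every library came from spleen, and the sort rests on 2 surface proteins.

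The 26S proteasome destroys proteins that carry ubiquitin chains. Its 20S core is a barrel of alpha and beta rings, in which Psmb5, Psmb6 and Psmb7 encode the catalytic beta subunits, and its 19S cap holds a ring of ATPases that unfold substrates and a lid that removes ubiquitin. In immune cells and under interferon the catalytic subunits are replaced by Psmb8, Psmb9 and Psmb10, giving the immunoproteasome, which shapes peptides for MHC class I. Erythroblasts are known to lean on ubiquitin and the proteasome when they clear organelles and remodel their proteome on the way to the reticulocyte.

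The libraries held 9360455 to 56323588 counts, and the proteasome genes took 0.358% to 0.746% of them. Klf1 itself was measured at a mean of 821 ± 322 CPM (SD, n = 3) for WT/WT, 415 ± 311 (n = 5) for WT/KO and 576 ± 209 (n = 4) for D45/KO, and its fold changes between genotypes did not pass the test. CPM throughout is the usual count scaled to library size, with that size adjusted by TMM. In each genotype some libraries were high in B cell transcripts. The B cell gene Cd79a was measured at 22.0 to 219 CPM in 9 libraries and at 0 to 2.22 CPM in the other 9, with none between. High in Cd79a were replicate 1 of WT/WT, of WT/D45 and of D45/D45, and replicates 1, 2 and 3 of both WT/KO and D45/KO. The 13 B cell markers summed to 177 to 1880 CPM in the 9 high libraries and to 2.57 to 26.2 CPM in the 9 low ones, and none of the 13 was at 0 in a whole genotype. The erythroblast markers summed to 28251 to 79731 CPM in the high libraries and to 108470 to 749940 CPM in the low ones, so these ranges did not overlap. Macrophage markers summed to 164.2 to 2884.5 CPM in the high and 81.2 to 460 CPM in the low libraries, T and NK cell markers to 14.1 to 83.7 and 7.53 to 31.9 CPM, and neutrophil markers to 15.4 to 219 and 1.87 to 288 CPM. In bulk RNA, fewer cells of a type and less RNA per cell cannot be told apart.

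Levels of different genes were compared per kilobase of exon, as CPM per kb, with exon lengths from GENCODE M21. Psme3, which encodes the nuclear activator PA28 gamma, had the highest median over the 18 libraries, 674 CPM per kb, with a range of 167 to 1731. The next in order, Psmd4, the ubiquitin receptor of the cap, had a median of 115 CPM per kb with a range of 45.5 to 274, which overlapped that of Psme3. Psmb4 followed at 114 CPM per kb and Psmb7 at 108, and the ranges of these genes overlapped widely. Psma8, the testis form of an alpha subunit, was the lowest at 0.125 CPM per kb, with a range of 0 to 0.964.

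Subunits of a ring that enter the particle in equal number did not have equal mRNA levels by this measure. Each length is the union of exons over the coding transcripts of the gene, 2846 bases for Psma3 and 1241 for Psma1. The order and the spans within a ring depend on that definition. In CPM, for example, the WT/WT mean was 84.3 for Psma3 and 28.9 for Psma4. Medians ran from 26.0 CPM per kb for Psma3 to 81.8 for Psma1 in the alpha ring and from 23.5 for Psmb2 to 114 for Psmb4 in the constitutive beta ring. The ATPase ring was more even, from 42.3 CPM per kb for Psmc6 to 82.1 for Psmc3, a 1.94-fold span against 3.15-fold in the alpha ring and 4.83-fold in the beta ring. The lid ran from 28.1 for Psmd12 to 58.1 for Psmd13. The other base genes ran from 49.5 for Psmd1, a scaffold, to 115 for Psmd4. Psme1 and Psme2, which together form the PA28 alpha-beta cap induced by interferon, were at 58.7 and 48.1 CPM per kb. The chaperones that build the cap ran from 19.2 for Psmd9 to 28.3 for Psmd10, and those that build the core ran from 3.77 for Psmg1 to 15.1 for Psmg2. The 3 immunoproteasome genes were low in the median, at 7.92 CPM per kb for Psmb8, 6.52 for Psmb9 and 4.09 for Psmb10. Psmf1, which encodes the inhibitor PI31, was at 90.3 and Psme4, the activator PA200, at 38.9 CPM per kb.

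**Figure D1:**
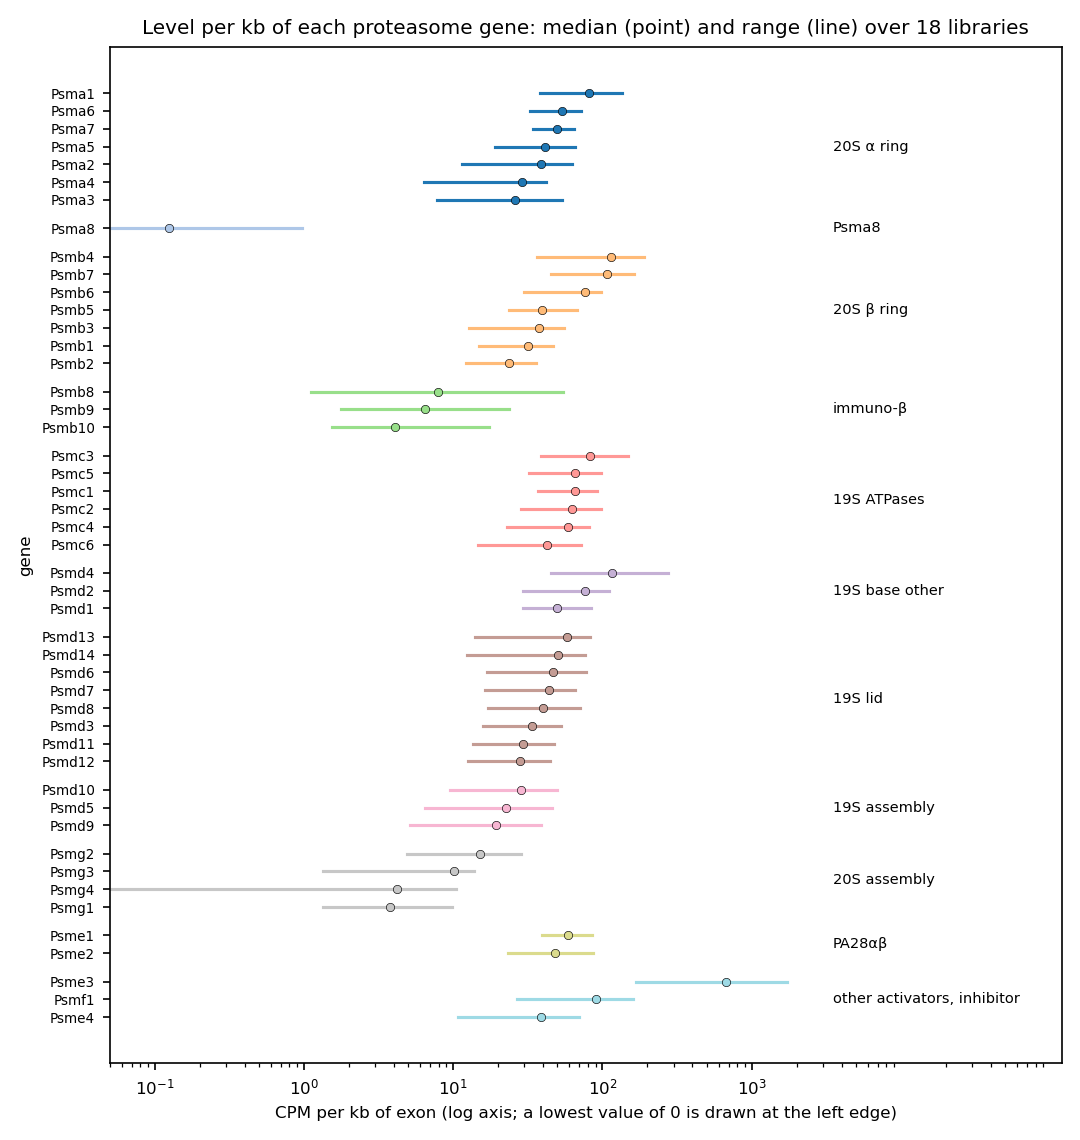
Level of each of the 47 proteasome genes in CPM per kb of exon on a log axis, with the median over 18 libraries as a point and the range as a line, grouped by subcomplex. Psme3 lies above every other gene at a median of 674, and Psma8 lies at 0.125.

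The immunoproteasome genes spread widely among the libraries of each genotype. Psmb8, the counterpart of Psmb5, was measured in WT/WT at 39.55, 2.69 and 19.6 CPM in replicates 1, 2 and 3. In WT/D45 it was at 44.0, 7.90 and 1.82 CPM, and in D45/D45 at 30.3, 5.57 and 3.59. In WT/KO the 5 libraries gave 65.6, 89.2, 78.1, 15.4 and 4.19 CPM, and in D45/KO the 4 libraries gave 10.4, 36.8, 7.48 and 2.80. In each genotype the libraries high in Cd79a were above those low in it, and the genotypes overlapped. The mean was 50.5 ± 38.3 CPM (SD, n = 5) for WT/KO, against 14.4 ± 15.3 (n = 4) for D45/KO.

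Psmb9, the counterpart of Psmb6, was at 19.96, 7.13 and 14.2 CPM in WT/WT, at 21.6, 3.31 and 2.40 in WT/D45 and at 18.04, 10.5 and 3.21 in D45/D45. In WT/KO it was at 26.7, 32.2, 23.1, 5.91 and 4.96 CPM, and in D45/KO at 6.67, 18.5, 3.65 and 2.86. Psmb10, the counterpart of Psmb7, was at 15.8, 2.38 and 12.4 CPM in WT/WT, at 17.98, 2.14 and 2.36 in WT/D45 and at 11.2, 4.001 and 2.17 in D45/D45. Its WT/KO libraries gave 21.8, 23.0, 13.6, 4.98 and 2.75 CPM and its D45/KO libraries 5.43, 18.3, 5.31 and 2.02. Replicate 3 of WT/WT stood out among the 9 libraries low in Cd79a, with the highest value there of Psmb8, of Psmb9 and of Psmb10. It was also the library with the highest summed erythroblast markers.

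In TMM-adjusted CPM the constitutive counterparts were lower in the libraries where the immuno forms were high. The TMM factors ran from 1.09 to 1.93 in the 9 high libraries and from 0.366 to 0.954 in the 9 low ones. Before that adjustment Psmb5 had 1248 of 23138736 counts in WT/WT replicate 1, a high library. It had 397 of 23460520 in WT/WT replicate 3, a low one. Psmb7 had 3404 and 1379 counts there, so between these 2 libraries the direction depends on the factors. Psmb5 (chymotrypsin-like activity) was at 21.2 to 33.7 CPM in the 9 high libraries, with a median of 29.3, and at 37.6 to 61.0 in the 9 low ones, with a median of 45.9, so the ranges did not overlap. Psmb7 (trypsin-like activity) was at 52.8 to 125 CPM, with a median of 96.3, against 126 to 189, with a median of 156, again without overlap. Psmb6 (caspase-like activity) was at 23.9 to 71.8 CPM against 51.4 to 77.5 and overlapped. By genotype the mean of Psmb5 was 51.2 ± 15.3 CPM (SD, n = 3) for D45/D45, 39.7 ± 9.10 (n = 3) for WT/WT, 36.4 ± 11.7 (n = 4) for D45/KO and 31.9 ± 10.2 (n = 5) for WT/KO.

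The share of the immuno form in each pair of counterparts was computed per kb. For Psmb8 over the sum of Psmb8 and Psmb5 it was 11.5% to 67.1% in the high libraries, with a median of 42.7%, and 2.18% to 18.9% in the low ones, with a median of 4.79%. For Psmb9 over Psmb9 and Psmb6 it was 3.17% to 36.3% against 2.15% to 11.96%, and for Psmb10 over Psmb10 and Psmb7 3.62% to 27.8% against 1.01% to 6.37%. In D45/KO replicates 1 and 3, the high libraries with the lowest B cell marker level, the Psmb8 share was 14.9% and 11.5%. In WT/KO replicates 1, 2 and 3 it was 56.8%, 65.3% and 67.1%. These shares compare mRNA only. In the annotation, exons of Psmb9 overlap Tap1 on the other strand by 212 bases and exons of Psmb7 overlap Nek6 by 405, and Psmb5, Psmb6 and Psmb7 have named pseudogenes. The sources used here do not give the strand setting of the counting, so reads at those overlaps cannot be assigned.

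**Figure D2:**
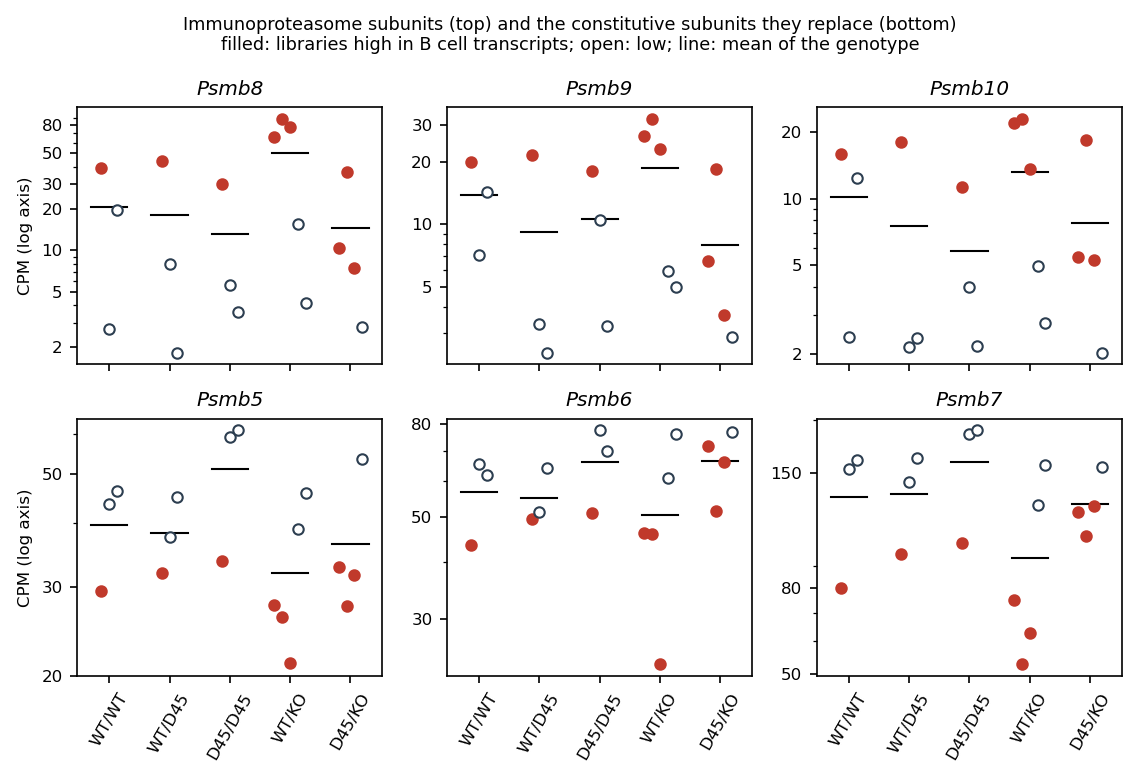
CPM of Psmb8, Psmb9 and Psmb10 (top) and of Psmb5, Psmb6 and Psmb7 (bottom) in each library on log axes, by genotype, with filled points for libraries high in B cell transcripts, open points for low ones and a line at the mean of the genotype. Within each genotype, in TMM-adjusted CPM, the filled points of Psmb8 lie above the open ones, and those of Psmb5 lie below.

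The sequences upstream of the 3 immunoproteasome genes, which varied together over the libraries, and of Psmb5, which varied the other way in TMM-adjusted CPM, are shown from RefSeq on GRCm38.p6. Each is the 250 bases before the annotated start, 5′ to 3′ on the gene's own strand. Psmb8 and Psmb9 are both on chromosome 17, Psmb10 is on chromosome 8 and Psmb5 on chromosome 14. Capitals mark the letters of the motif that was found in each.
Psmb8, chr17:34197945-34198194, plus strand: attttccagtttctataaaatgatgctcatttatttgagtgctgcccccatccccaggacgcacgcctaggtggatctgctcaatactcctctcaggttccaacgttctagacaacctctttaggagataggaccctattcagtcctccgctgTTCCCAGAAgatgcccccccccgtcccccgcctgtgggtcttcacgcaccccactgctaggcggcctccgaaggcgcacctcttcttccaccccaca
Psmb9, chr17:34187331-34187580, minus strand: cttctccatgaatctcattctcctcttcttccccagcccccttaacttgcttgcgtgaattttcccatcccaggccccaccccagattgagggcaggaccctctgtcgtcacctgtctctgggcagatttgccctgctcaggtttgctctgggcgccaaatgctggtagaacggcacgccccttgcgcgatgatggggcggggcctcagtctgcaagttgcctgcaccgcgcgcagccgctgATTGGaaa
Psmb10, chr8:105938393-105938642, minus strand: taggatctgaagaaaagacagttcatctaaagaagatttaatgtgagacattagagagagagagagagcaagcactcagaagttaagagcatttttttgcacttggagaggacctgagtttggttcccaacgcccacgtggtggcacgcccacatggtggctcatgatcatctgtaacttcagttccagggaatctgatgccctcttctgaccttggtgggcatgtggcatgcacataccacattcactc
Psmb5, chr14:54617996-54618245, minus strand: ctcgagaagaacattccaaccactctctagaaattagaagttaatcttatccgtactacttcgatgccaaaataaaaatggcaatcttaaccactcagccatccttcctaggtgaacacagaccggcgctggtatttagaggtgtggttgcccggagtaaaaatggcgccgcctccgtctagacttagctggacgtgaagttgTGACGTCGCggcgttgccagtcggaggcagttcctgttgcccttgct

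In Psmb8 the capitals are the interferon-gamma-activated site TTCNNNGAA, which reads alike on both strands and starts 97 bases before the start. In Psmb9 they are a CCAAT box on the opposite strand, 8 bases before the start. In Psmb5 they are the antioxidant response element TGACNNNGC, the letters that NFE2L1 and NFE2L2 are known to bind, 47 bases before the start. No searched motif was in the Psmb10 window. Both strands were searched in the 39 promoters of the proteasome genes that RefSeq matched and in 27025 promoters in all. The antioxidant response element was in 5 of 39 (12.8%) against 10.1% of all, and those 5 were Psmb5, Psmb6, Psmc6, Psmd12 and Psmd9. The core of the interferon-stimulated response element, which is GAAA, any 2 bases and GAAA again, was in 3 of 39 (7.69%) against 3.04%, the interferon-gamma-activated site in 2 (5.13%) against 7.18% and CCAAT in 13 (33.3%) against 34.5%. The KLF1 letters CCACACCC were in 1 of 39, Psmg1 (2.56%), against 3.19% of all promoters. Such matches describe letters and say nothing of binding.

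Between genotypes, no proteasome gene was called by the quasi-likelihood fit of edgeR, with 0.05 as the threshold on p adjusted by Benjamini-Hochberg. In D45/KO against WT/KO 23 of 13405 genes passed (0.172%) and 0 of the 47, and in D45/KO against WT/WT 83 passed (0.619%) and 0 of the 47. None of all genes passed in WT/KO, D45/D45 or WT/D45 against WT/WT (0% in each), 1 passed in D45/KO against D45/D45 (0.00746%), and 45 passed the test over all 5 genotypes at once (0.336%). At an unadjusted p under 0.05, Psmd1 and Psmd3 were below it in D45/KO against WT/KO, where 5.41% of genes were, and Psmd3 alone in D45/KO against WT/WT, where 8.93% were. Psme2 was below it in WT/D45 against WT/WT (1.45% of genes). None of the 47 was in WT/KO against WT/WT (4.27%), D45/D45 against WT/WT (4.07%), D45/KO against D45/D45 (2.26%) or over the 5 genotypes (4.8%). DESeq2 also called 0 of the 47 in each of these 7 comparisons. In the order above it called 1.38%, 3.14%, 0.142%, 0.507%, 0%, 0.127% and 2.41% of all genes. Limma-voom without library weights called 0 of the 47 as well, and of all genes 0.5%, 0.559%, 0.00746%, 0%, 0%, 0% and 0.201%. At an unadjusted p under 0.05 DESeq2 had 5 of the 47 in D45/KO against WT/KO, where 9.09% of all genes were, and 0 or 1 in the others, where 2.24% to 11.5% were. Limma-voom had 1 of the 47 in WT/KO against WT/WT, where 5.78% were, and 0 elsewhere, where 2.07% to 9.91% were.

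In D45/KO against WT/KO, the compound heterozygote against the mouse with a single intact copy, 40 of the 47 had a log2 fold change above 0, with a median of 0.26 beside -0.15 over all genes tested. The 7 alpha, 7 constitutive beta, 6 ATPase and 8 lid genes lay on the positive side, all but 1 alpha gene also with DESeq2 size factors, and the ATPases had a median of 0.45 with a range of 0.40 to 0.58. The 3 immunoproteasome genes lay on the negative side with a median of -1.23. Psmb8 was at -1.81 ± 1.07 (log2, SE), Psmb9 at -1.23 ± 0.79 and Psmb10 at -0.77 ± 0.85, with edgeR adjusted p of 0.927 for each. The 13 B cell markers had a median of -1.82 in the same comparison and the erythroblast markers one of 0.16, and their part in the result was not tested. The median of the 47 was 0.07 without WT/KO replicate 3, the library with the fewest counts. In TMM-adjusted CPM, with a factor of 1.63, that library held the lowest value of 33 of the 47 genes. Of its total counts the 47 took 0.406%, against 0.358% in WT/WT replicate 3. The median was 0.17 without D45/KO replicate 4, 0.46 without WT/KO replicate 4 and 0.47 without WT/KO replicate 5. It was 0.10 among mice with an identifier of 200 and above, and 0.42 with the identifier as a covariate.

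Against WT/WT, D45/KO had 21 of the 47 above 0, with a median of -0.08 beside 0.07 over all genes. That direction turned, to 0.14 without WT/WT replicate 3, 0.14 beside the B cell marker level and 0.10 beside the identifier.

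The members with the lowest p in D45/KO against WT/KO were in the cap. Psmd1 was at 223, 159, 178 and 241.3 CPM in D45/KO and at 100, 91.4, 106, 149 and 194 in WT/KO. Those groups overlapped through WT/KO replicate 5, and the log2 difference was 0.65 ± 0.29 (SE, edgeR adjusted p = 0.861). Beside the B cell marker level as a second term Psmd1 passed, at 0.63 ± 0.17 and an edgeR adjusted p of 0.0488, the only one of the 47 among 342 genes called (2.55%). Psmd3, a lid scaffold, was at 113, 57.7, 81.1 and 98.4 CPM in D45/KO, at 66.9, 52.5, 34.3, 61.4 and 85.3 in WT/KO and at 63.1, 57.3 and 51.3 in WT/WT. Its D45/D45 libraries were at 78.4, 90.2 and 86.2 CPM, all above those of WT/WT, with a log2 difference of 0.57 ± 0.31 (edgeR adjusted p = 1). It was the only gene of the 47 for which the groups of one of the 6 pairs did not overlap. The share of all genes tested without such overlap was not computed, so whether 1 is many or few cannot be told. Against WT/WT, D45/KO differed in Psmd3 by 0.61 ± 0.29 on the log2 scale (edgeR adjusted p = 0.557), the largest rise there, and the largest fall was in Psmb9, at -0.80 ± 0.87.

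In WT/KO against WT/WT 8 of the 47 were above 0, with a median of -0.30 beside 0.26 over all genes. The immunoproteasome genes were 3 of those 8, led by Psmb8 at 1.29 ± 1.16 (edgeR adjusted p = 0.818). Among the libraries low in Cd79a alone, Psmb8 turned to -0.18, and the median of the 47 was -0.08. With single libraries left out that median ran from -0.15 without WT/KO replicate 3 and -0.17 without WT/WT replicate 3 to -0.47 without WT/WT replicate 1 and -0.49 without WT/KO replicate 5. Beside the B cell marker level it was -0.17, and the 3 immunoproteasome genes turned to a median of -0.52. In D45/D45 against WT/WT 33 of 47 were above 0 with a median of 0.21 beside 0.01, and the 6 ATPases were all above 0 with a median of 0.40. The median of the 47 was 0.08 without WT/WT replicate 1, 0.10 and 0.12 without D45/D45 replicates 3 and 2, 0.42 without D45/D45 replicate 1 and 0.44 without WT/WT replicate 3. With the replicate block 10 of all genes were called there, and 0 of the 47. Psmd5, a chaperone of the ATPase ring, had the largest rise there, from 69.2, 96.6 and 103 CPM in WT/WT to 74.4, 202 and 177 in D45/D45, which overlapped (0.75 ± 0.52, edgeR adjusted p = 1). In WT/D45 against WT/WT 25 of 47 were above 0, with a median of 0.01 beside 0.10, and with DESeq2 size factors that median turned to -0.06. It also turned without WT/D45 replicate 3, to -0.14, and without WT/WT replicate 1, to -0.10. There Psma5 had the largest rise at 0.38 ± 0.35, and Psme2, the beta subunit of PA28, was at 46.9, 22.6 and 42.2 CPM against 44.7, 49.1 and 84.5 (-0.67 ± 0.31, edgeR adjusted p = 1). In D45/KO against D45/D45 8 of 47 were above 0 with a median of -0.28 beside 0.06. That median was -0.12 without D45/D45 replicate 3, -0.17 without D45/KO replicate 3, -0.18 without D45/D45 replicate 2 and -0.44 without D45/D45 replicate 1. Beside the B cell marker level it was -0.04. Psma3 had the largest fall there, at 64.7, 67.8, 51.1 and 91.1 CPM against 63.6, 152 and 140 (-0.78 ± 0.40, edgeR adjusted p = 1), and it had the smallest p of the 47 over the 5 genotypes (0.104, edgeR adjusted p = 0.998). The 12 macrophage markers had a median of 2.62 in the same comparison, 12 of 12 above 0, and their part was not tested. The 4 comparisons against WT/WT share its 3 libraries.

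Psma8 gave the largest rise or fall in 5 of the 6 pairs at a level where counts were few. It was at 0.141, 0 and 1.63 CPM in WT/WT, at 0.491, 0 and 0.414 in WT/D45, at 0.847, 0 and 0 in D45/D45, at 0.151, 0.710, 0, 0.156 and 0.0670 in WT/KO and at 0.482, 0.267, 1.39 and 0.288 in D45/KO. No library held more than 52 counts of it, and all groups overlapped. Its log2 fold change was 1.41 ± 1.52 in D45/KO against WT/KO (edgeR adjusted p = 0.927) and -1.35 ± 1.64 in WT/KO against WT/WT (edgeR adjusted p = 0.818), and without WT/WT replicate 3 the latter turned to 1.45.

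**Figure D3:**
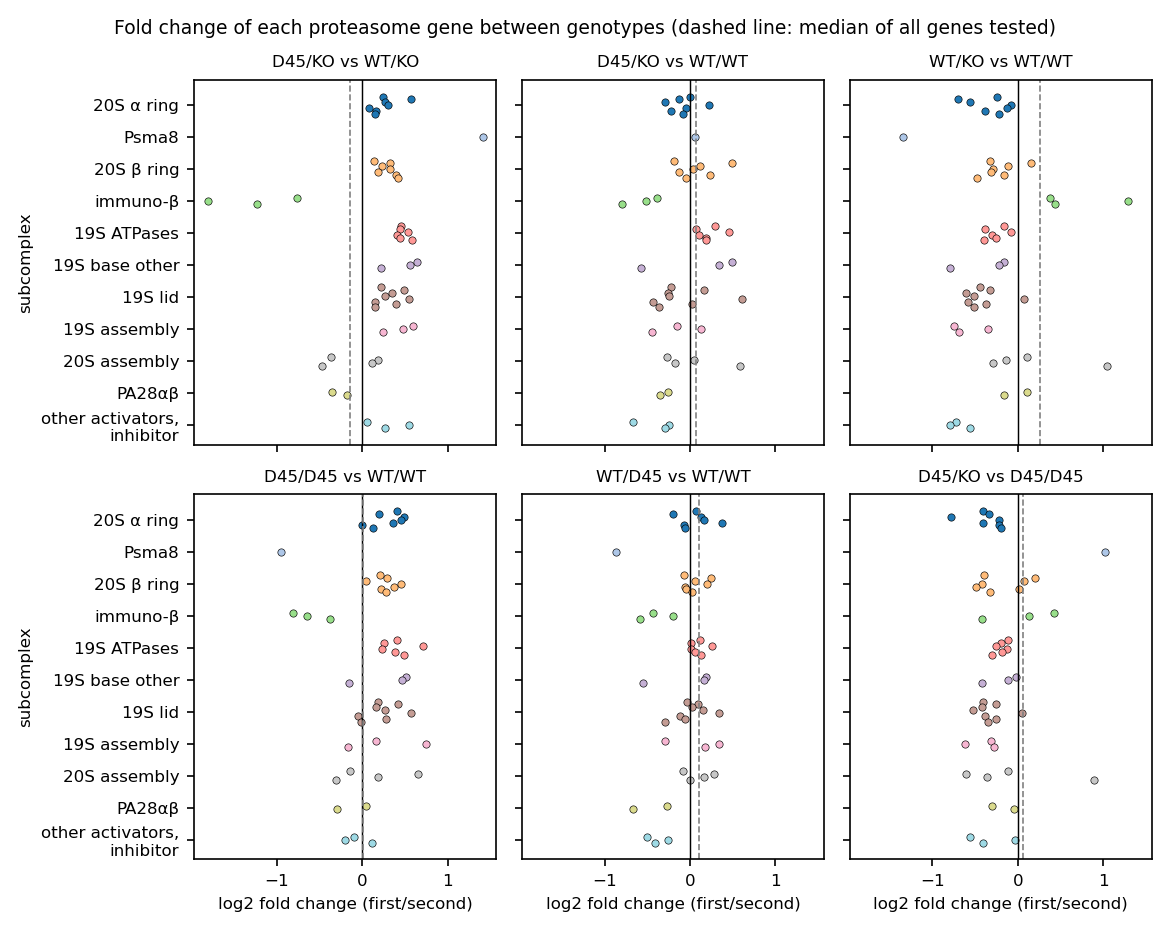
Log2 fold change of each of the 47 genes in the 6 pairs of genotypes, as points by subcomplex, with a solid line at 0 and a dashed line at the median of all genes tested. The 3 immunoproteasome genes lie at -1.81 to -0.77 in D45/KO against WT/KO, where 40 of the other 44 lie above 0.

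Over the 5 genotypes together, the gene with the smallest p in each group of subunits had an edgeR adjusted p of 0.998. Psmc6 led the ATPases, with a mean of 120 ± 46.9 CPM (SD, n = 3) for D45/D45, 97.3 ± 17.9 (n = 4) for D45/KO, 93.7 ± 26.5 (n = 3) for WT/D45, 85.6 ± 19.2 (n = 3) for WT/WT and 64.9 ± 29.6 (n = 5) for WT/KO. The lead was Psmb5 in the constitutive beta ring, Psme2 in PA28 alpha-beta, Psmb8 in the immunoproteasome, Psmg2 in the core chaperones and Psme4 in the other activators. Psmg2 was at 6.42 to 28.1 CPM within WT/KO alone.

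Library weights changed the number called. With limma-voom and weights for library quality, 11 of the 47 were called higher (23.4%) in D45/KO against WT/KO, where 8.55% of genes were, and 3 lower (6.38%), where 9.31% were. The 3 called lower were Psmb8 at -2.60, Psmb9 at -2.03 and Psmb10 at -1.85 on the log2 scale. The 11 called higher were 4 of 6 ATPases (Psmc3, Psmc4, Psmc5 and Psmc6), Psmd1, Psmd2, Psmd5, Psmd10, Psmd12, Psmb7 and Psme4. In WT/KO against WT/WT the weighted fit called 9 of 47 (19.1%) lower, where 6.74% of genes were, among them Psme4, Psmf1, Psme3 and Psmd4 at -1.95, -1.83, -2.11 and -1.78. It called 4 of 47 in D45/KO against D45/D45 (5.24% of genes) and 22 of 47 over the 5 genotypes (17.1% of genes). The weights ran from 0.220 for WT/KO replicate 5 and 0.337 for WT/KO replicate 4, the 2 WT/KO libraries low in Cd79a, to 3.94 for D45/D45 replicate 3. In WT/KO the fit so rested on the 3 libraries high in Cd79a, with weights of 1.93, 0.917 and 0.519. Among WT/WT libraries the largest weight, 2.63, was that of replicate 3, which is low in it. In the 9 libraries low in Cd79a alone, where D45/KO has a single library that is assumed to vary like the others, edgeR called 0 of the 47 in all 6 pairs. Of all genes it called 0.335% in D45/KO against WT/KO and 0.0802% in D45/KO against D45/D45. Against WT/WT it called 2.35% of all genes for D45/KO, 0.168% for WT/KO, 1.36% for D45/D45 and 0.0219% for WT/D45. At an unadjusted p under 0.05 were 0 to 5 of the 47, and 2.88% to 12.4% of all genes.

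Most proteasome genes, in TMM-adjusted CPM, varied with the B cell marker level. That level was the mean log2 CPM of the 13 B cell markers, from -2.63 to 6.88, and its slope was fitted beside genotype in all 18 libraries. The level went together with the identifier numbers of the mice in the labels, since 7 of the 9 libraries high in Cd79a and 0 of the 9 low ones came from mice numbered under 200. With edgeR 5 of the 47 were called with a higher level at a higher B cell marker level (10.6%), against 31.5% of all genes, and 33 of 47 with a lower level (70.2%), against 24.1% of all genes. The 5 were Psmb8 with a slope of 0.378 ± 0.047 (log2 CPM per log2 unit, SE), Psmb10 with 0.292 ± 0.044, Psmb9 with 0.262 ± 0.042 and the core chaperones Psmg4 with 0.194 ± 0.075 and Psmg1 with 0.131 ± 0.050. Their edgeR adjusted p were 2.27e-06, 1.83e-05, 3.73e-05, 0.0343 and 0.0324. Over 26 other settings the calls of Psmb8, Psmb9 and Psmb10 held in all 26, that of Psmg4 in 16 and that of Psmg1 in 17. Neither core chaperone was called with the identifier as an added covariate, without the 2 libraries of even counts, or without D45/D45 replicate 1, D45/D45 replicate 2 or WT/D45 replicate 1. Of the 38 calls 31 held in all 26 settings, and the others that did not were Psma3, Psma5, Psma6, Psmd7 and Psmg2. All of these settings scaled the libraries by TMM or DESeq2 size factors and none by total counts alone, so they do not test the scaling itself. Of total counts the 47 genes took 0.406% to 0.746% in the 9 libraries high in Cd79a, with a median of 0.583%. In the 9 low ones they took 0.358% to 0.657%, with a median of 0.513%. Their summed share before size factors was therefore not lower in the high libraries, and the slopes were not refitted on total counts. The gate selects CD71 and TER119 and no B cell protein, and the part of other cells in these slopes was not tested.

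Among the 33 with a falling slope, the activators and the inhibitor were steepest. Psme3 had a slope of -0.252 ± 0.041, Psmf1 one of -0.225 ± 0.023 and Psme4 one of -0.184 ± 0.024, with edgeR adjusted p of 4.09e-05, 2.51e-07 and 4.18e-06. Psmf1 was at 107 to 359 CPM in the 9 high libraries, with a median of 141, and at 362 to 645 in the 9 low ones, with a median of 508, without overlap. Psme3 was at 446 to 1886 CPM, with a median of 755, against 1705 to 4610, with a median of 2744, and overlapped. In the cap, the slope was called lower for 6 of 6 ATPases (-0.111 to -0.071), 3 of 3 other base genes, 7 of 8 lid genes and 3 of 3 cap chaperones. The ubiquitin receptor Psmd4 had -0.180 ± 0.025 and the cap chaperones Psmd10 and Psmd5 had -0.178 ± 0.020 and -0.150 ± 0.019.

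In the core, 5 of 7 alpha genes and 5 of 7 constitutive beta genes were called lower. Psmb7 had -0.113 ± 0.015, Psmb5 -0.090 ± 0.015 and Psmb6 -0.073 ± 0.018, with edgeR adjusted p of 4.90e-06, 4.81e-05 and 0.00191. Psme1 and Psme2 were not called, at -0.035 ± 0.018 and -0.004 ± 0.023 (edgeR adjusted p = 0.104 and 0.903). Psme1 was at 43.8 to 88.1 CPM in the high libraries and at 55.1 to 94.4 in the low ones, and Psme2 at 39.5 to 71.6 and at 22.6 to 84.5. The other genes not called were Psma4, Psma7, Psma8, Psmb2, Psmb3, Psmd3 and Psmg3. Over the 47 genes the median slope was -0.10, against 0.04 for all genes. The 11 erythroblast markers tested had a median slope of -0.22, and 11 of 11 were called lower, among them globin, haem and membrane genes. Their part in the slopes of the proteasome genes was not tested.

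**Figure D4:**
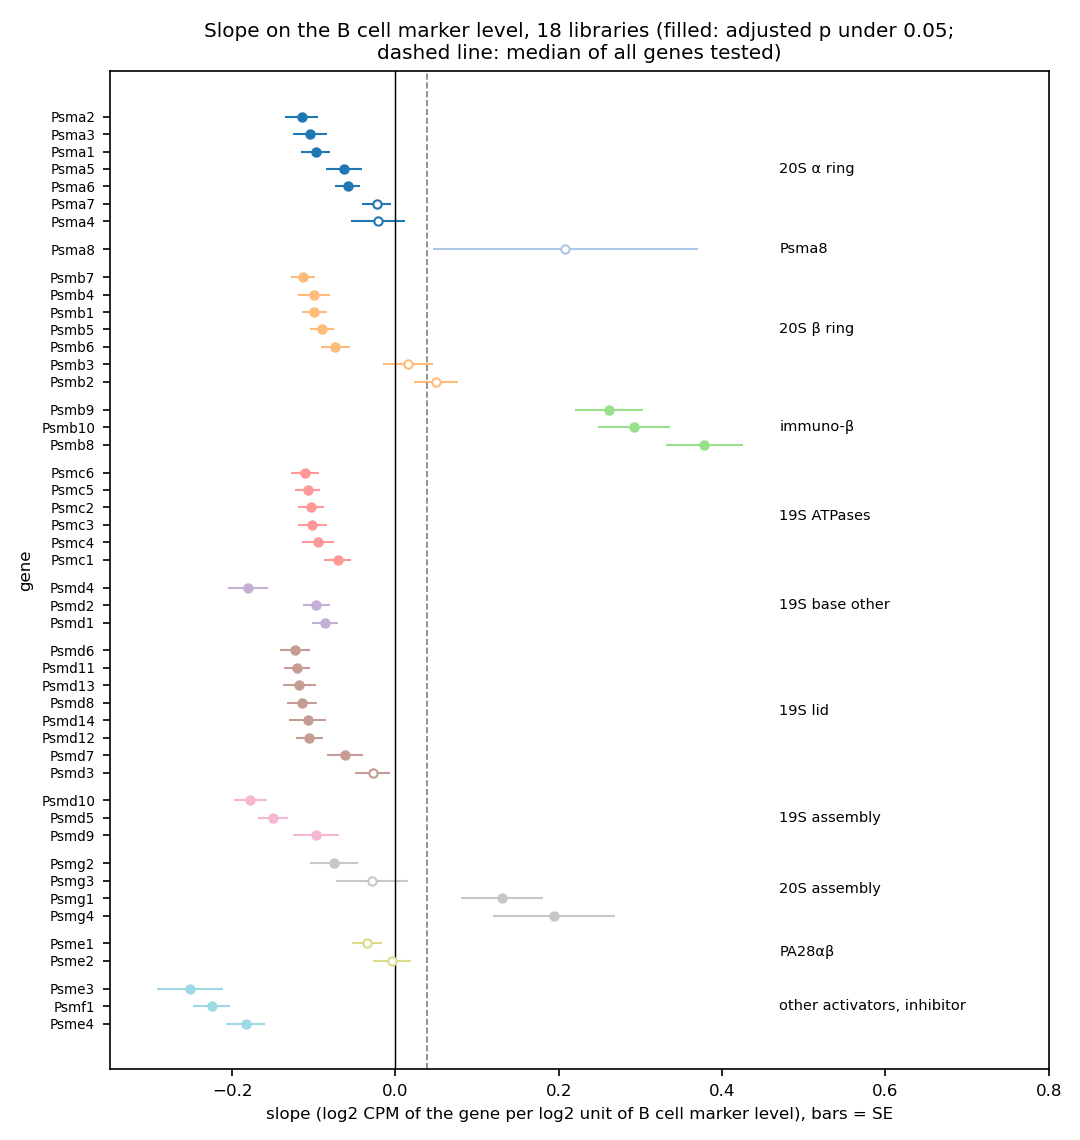
Slope of each proteasome gene on the B cell marker level, in log2 CPM per log2 unit, with its SE as a bar, by subcomplex, filled where the edgeR adjusted p is under 0.05, over 18 libraries. The 3 immunoproteasome genes lie at 0.262 to 0.378 and 33 genes are filled below 0.

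Within the 9 libraries high in Cd79a, the catalytic subunits were set against the B cell marker level without a genotype term. The 3 WT/KO libraries had the highest levels there, 6.65 to 6.88, and D45/KO replicates 3 and 1 the lowest, 3.46 and 3.92, so the level and the genotype cannot be told apart, and the permutations ignore genotype. Within D45/KO the 3 high libraries had the same order in Psmb8 and in the level, and within WT/KO they did not. Over 12 relations tested by exact two-sided permutation and adjusted together, log2(CPM + 1) of Psmb8 had a Pearson r of 0.989 (adjusted p = 0.000728) and a Spearman rho of 0.933 with the B cell marker level. For Psmb9 r was 0.964 (exact permutation adjusted p = 0.00086) and rho 0.917. Without the 2 libraries farthest from the median level, r was 0.939 for Psmb8 and 0.822 for Psmb9. For Psmb10 r was 0.899 (exact permutation adjusted p = 0.0133) with rho of 0.617 (adjusted p = 0.166), and r fell to 0.426 without those 2 libraries, so it rests on them. For Psmb7 r was -0.851 (exact permutation adjusted p = 0.0133) and rho -0.933, and r stayed at -0.839. For Psmb6 r was -0.783 (exact permutation adjusted p = 0.0158) and rho -0.867, and for Psmb5 r was -0.649 (exact permutation adjusted p = 0.106) and rho -0.600. In the 9 libraries low in Cd79a, 5 of the 6 genes did not pass. Psmb6 had r of -0.748 there (exact permutation adjusted p = 0.0402), which fell to -0.285 without the 2 farthest libraries. The points of a library share its depth and its normalisation.

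**Figure D5:**
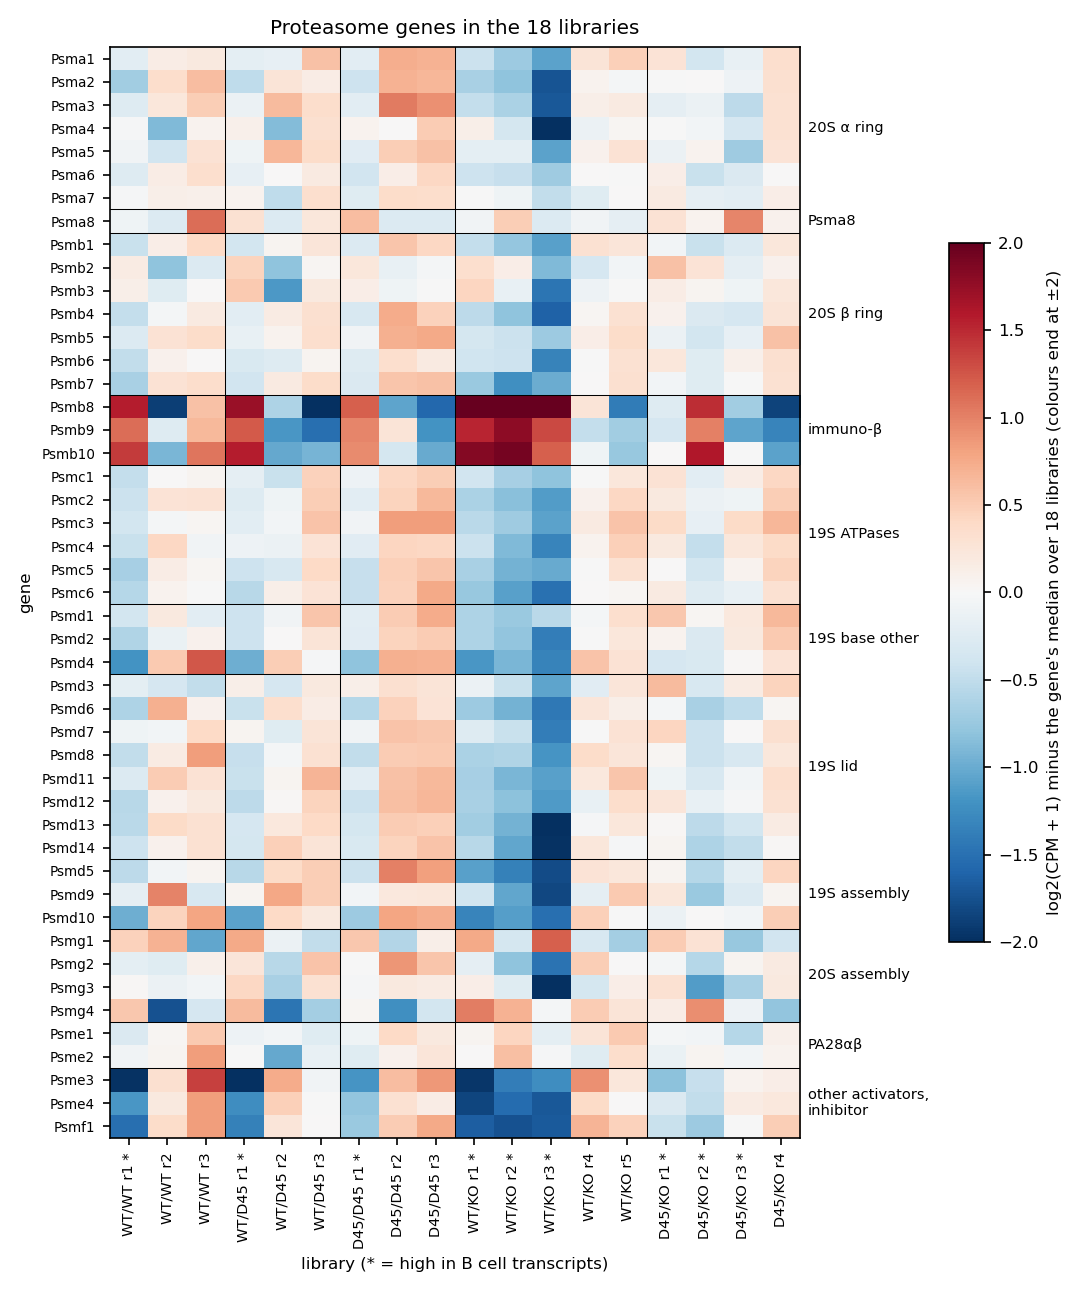
Each proteasome gene (rows, by subcomplex) in each of the 18 libraries (columns, by genotype, with a star for libraries high in B cell transcripts), as log2(CPM + 1) minus the median of the gene over the libraries. In TMM-adjusted CPM Psmb8, Psmb9 and Psmb10 run opposite to most rows, and WT/KO replicate 3 holds the lowest value of 33 of the 47 genes.

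The genes that work with the proteasome were read from lists beside these. Of 8 partners with other symbols 6 were called lower with the B cell marker level and 0 higher, led by Fbxo7, an F-box protein that binds PI31, at -0.215 ± 0.022, and Usp14, a deubiquitinase of the cap, at -0.191 ± 0.023 (edgeR adjusted p = 3.04e-07 and 1.43e-06). Of 6 erythroid ubiquitin ligases and conjugating enzymes 6 of 6 were called lower, with a median of -0.264. Of 13 ubiquitin and delivery genes 7 were called lower and 1 higher. Of the 9 genes of the NFE2L1 pathway 4 were called lower and 0 higher. Of 12 genes of interferon control and MHC class I, 6 were called higher and 2 lower. These counts stand beside 31.5% of all genes called higher and 24.1% called lower. Nlrc5, the activator of MHC class I genes, had 0.510 ± 0.059 and Irf1, an interferon-response factor, 0.429 ± 0.053 (edgeR adjusted p = 1.18e-06 and 2.00e-06). Between genotypes edgeR called no gene of these 5 lists in any of the 6 pairs. In D45/KO against WT/KO 4 of their 48 genes had an unadjusted p under 0.05, beside 5.41% of all genes. In D45/KO against WT/WT 3 did (8.93% of all genes) and in D45/D45 against WT/WT 1 did (4.07%). In the remaining pairs 0 did (1.45% to 4.27%). In the list of the NFE2L1 pathway, which raises proteasome genes when the proteasome is impaired, Nfe2l2 had the smallest p over the 5 genotypes (0.0165, edgeR adjusted p = 0.748). Its mean was 72.0 ± 12.9 CPM (SD, n = 4) in D45/KO, 64.6 ± 8.01 (n = 3) in D45/D45, 43.5 ± 10.7 (n = 3) for WT/D45, 41.4 ± 13.1 (n = 5) for WT/KO and 40.6 ± 10.4 (n = 3) in WT/WT. Shfm1, a small lid subunit, had the smallest p among the partners (0.171, edgeR adjusted p = 0.998).

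The authors' deposited table lists 46 of the 47 genes, with WT/WT as the numerator and WT/KO as the denominator. Values above 0 in the authors' deposited table were those of 40 of the 46, with a median of 0.39 and a range of -2.14 to 0.97, and the smallest adjusted p among them was 0.853.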

How the data were processed

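RNA-seq of 18 mouse spleen erythroblast libraries was deposited by the authors as raw counts per gene symbol, and per the submitters' processing notes the tools were featureCounts, HISAT2 and limma with build mm9, and the sources used here give neither role nor version. The counts are whole numbers, and in 2 libraries (D45/D45 replicate 1 and D45/KO replicate 2) 97.3% and 98.5% of the counts above 0 were even numbers against 51.9% to 76.7% elsewhere. A second table deposited by the authors holds their log2 fold changes, p-values and adjusted p-values of WT/WT over WT/KO. Groups came from the genotype labels, and nothing in them names separate litters or batches.

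Counts were tested in R 4.3.3 with edgeR 4.0.16 (filterByExpr by genotype, TMM, quasi-likelihood fit without the robust option, all 18 libraries, genotype alone), with Benjamini-Hochberg adjustment over 13405 genes and a threshold of 0.05. Each SE was taken from the F value of the test, as |log2 fold change| / sqrt(F). The slope on the B cell marker level was fitted beside genotype, with log2 CPM at a prior count of 2. Same-numbered libraries of WT/WT, WT/D45 and D45/D45 deviated together (9 of 9 correlations over 0.1, from 0.12 to 0.77). In each of these genotypes replicate 1 alone was high in Cd79a, and differently numbered libraries were not compared. The correlations therefore cannot show whether the numbers pair these genotypes, and the labels do not say. The main tests used genotype alone, and a replicate block was run as an alternative. Of the same-numbered pairs with WT/KO or D45/KO 9 of 22 were over 0.1, and the numbers were not read as pairing them. Alternatives used DESeq2 1.42.0 and limma 3.58.1, and the fits were tested on simulated data. Genes named in the text are the catalytic and PA28 subunits, called members, the lowest p and the extreme levels of each subcomplex, and the largest rise and fall of each pair. The members and lists were chosen with earlier results of these data known. Depth sets the precision, since 1 CPM is about 9.36 counts in the shallowest library and 56.3 in the deepest before TMM adjustment. Exon lengths and promoters are from GRCm38, not mm9.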

Additional observations from a re-analysis of the deposited data

Results flagged for a closer look

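The only value among 46 groups of library values that stood apart from its group by Dixon's test was that of Psma8, the testis form of an alpha subunit, in WT/KO replicate 2, at 0.710 CPM against 0 to 0.156 CPM in the other 4 WT/KO libraries. By chance about 1 group in 20 passes that test, and the value rests on 36 counts.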

How the results depend on the processing

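The count of proteasome genes called moved in 4 comparisons under limma-voom with library quality weights, to 14 in D45/KO against WT/KO, 9 in WT/KO against WT/WT, 4 in D45/KO against D45/D45 and 22 over the 5 genotypes, and to 1 in D45/KO against WT/KO beside the B cell marker level. In the other settings run for the genotypes, DESeq2 and leaving out each library included, these counts stayed at 0, and the number called with the B cell marker level stayed between 33 and 38, although 7 of the 38 calls were lost in at least 1 setting. With a replicate block 0 of the 47 were called in each of the 7 comparisons, while all genes called rose from 23 to 128 in D45/KO against WT/KO and from 83 to 209 in D45/KO against WT/WT. For the same 2 pairs DESeq2 called 185 and 421 of all genes, limma-voom 67 and 75, and limma-voom with quality weights 2394 and 717. Of 31 pairs of libraries with the same replicate number 18 had a correlation of their deviations over 0.1, with a range of -0.46 to 0.77. The 10 pairs of replicate 1 ran from 0.31 to 0.77, and those 5 libraries were all high in Cd79a, while the 21 pairs of other numbers ran from -0.46 to 0.63. The block moved the median of the 47 to 0.57 in D45/KO against WT/KO and to -0.66 in WT/KO against WT/WT. At an unadjusted p under 0.05 were 20 and 27 of them, beside 15.1% and 28.5% of all genes. With DESeq2 size factors the median of all genes in D45/KO against WT/KO moved from -0.15 to -0.26 and that of the proteasome genes from 0.26 to 0.21.

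Psma8 reversed to -0.21 in D45/KO against WT/KO among mice with an identifier of 200 and above. Against WT/WT it reversed in WT/KO to 0.55 with the replicate block and in WT/D45 to 0.25 with limma-voom. With each library left out in turn it ran from -2.54 to 1.45 in WT/KO, from -7.38 to 1.85 in D45/D45 and from -1.45 to 1.95 in WT/D45, and the upper value of each was that without WT/WT replicate 3. Psmb9 in D45/KO against WT/WT reversed to 0.034 among mice with an identifier of 200 and above, and Psmb8 in WT/KO against WT/WT to -0.18 in the libraries low in Cd79a. The slope of Psme1 reversed to 0.000672 with the identifier as an added covariate. The slope of Psme2 reversed to 0.032 with that covariate, 0.026 with DESeq2 size factors, 0.0047 without the 2 libraries of even counts and ran from -0.019 to 0.0090 with each library left out in turn. The cause of these changes was not tested. Of 586 alternative values for named genes, 563 kept their direction and their side of the threshold, 18 reversed and 5 passed it newly. Settings without the libraries of even counts or with their counts halved, with low Cd79a libraries only and with the identifier beside the slope were chosen after seeing the data. Depth limits Psma8 and Psmg4 most. Psma8 had no counts in some libraries, and Psmg4 had none in WT/WT replicate 2 alone.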

Other observations

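In TMM-adjusted CPM the highest value of a proteasome gene over the 18 libraries was in D45/D45 replicate 2 for 13 of the 47 genes, in D45/D45 replicate 3 for 11 and in WT/WT replicate 3 for 8. All 3 of these libraries were low in Cd79a, and in that order their TMM factors were 0.654, 0.570 and 0.366. Of their total counts the proteasome genes took 0.547%, 0.513% and 0.358%. That share was 0.746% in D45/KO replicate 1, which held the highest CPM of 2 genes, so the ranking depends on the TMM factors. The summed 19S lid genes were at 534, 924 and 926 CPM in D45/D45 (lowest, median and highest) and at 242, 445 and 780 CPM in WT/KO. The PA28 alpha-beta genes, Psme1 and Psme2, summed to 85.2 CPM in WT/D45 replicate 2, the lowest, and to 178.9 CPM in WT/WT replicate 3, the highest.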
